A study of Homo sapiens with 5 samples.

Results

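Control cells of the MDA-MB-468 line with the most RNA of DNA replication genes were set against control cells of the same samples with the least. MDA-MB-468 is an established human line of triple-negative breast cancer. The study pooled 5 samples, each marked with its own hashtag antibody, and sequenced the pool as 1 library of 3' transcript tags. They were an HA control and an HA FOSL1 sample, and a VPR control with 2 VPR FOSL1 samples made with gRNA2 and gRNA3, where FOSL1 is the gene of FRA-1, which pairs with JUN proteins to form the transcription factor AP-1. The labels do not spell out HA or VPR, name no clones, promoters or passage, and mention 5-FU, an inhibitor of thymidylate synthesis, for the series in general without saying whether these samples received it. The HA hashtags carry the prefix GOF and were taken as the HA samples by elimination. Kept were cells in which 1500 genes or more were detected and mitochondrial UMIs (unique transcript tags) made up no more than 20%, 14642 in the series and 5975 in the controls. Each control cell was given a score, the UMIs of MCM3, MCM4, MCM5, MCM6, PCNA and CDC6 per 10000 UMIs of the cell. The top quartile of the HA control (845 of 3380 cells) and of the VPR control (649 of 2595 cells) are called replication-high, and as many cells from the bottom quartile of each are called replication-low, 2988 cells in all.

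Before DNA is copied, a cell loads the MCM helicase onto replication origins with the help of ORC, CDC6 and CDT1, which is called licensing. Once S phase begins, PCNA clamps the polymerases to the DNA, and newly made histones package the copies. Many genes of these steps are switched on together around the passage from G1 to S by the E2F transcription factors, which the retinoblastoma protein holds back in normal cells. Genes of chromosome segregation are transcribed later, in G2 and mitosis, and their RNA can outlast division.

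The score had a median of 5.40 in the HA control and 5.55 in the VPR control, and 48 and 27 cells had none of the 6 RNAs. Cells just inside the high class scored 9.42 and 9.54 in the HA and VPR controls, and the nearest cells outside it 9.40 and 9.54. At the low bound the cells just inside scored 3.17 and 3.36 and those just outside 3.18 and 3.36. Scores formed a continuum, so both classes are ranges and not cell types. In the HA control 317 cells lay within 10% of the upper bound and 270 within 10% of the lower, and in the VPR control 242 and 224. The class medians stood far apart, at 12.2 against 2.13 in the HA control and 12.4 against 2.31 in the VPR control.

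Replication-high cells were deeper. Their median was 16795 UMIs and that of low cells 13315 in the HA control, and 17218 and 13552 in the VPR control. They held a median of 4291 against 3685 detected genes in the HA control, a gap that shrank to 2058 against 2017 when each cell was thinned to 5000 UMIs. In the VPR control these medians were 4389 against 3766, and 2074 against 2035 after thinning. Median mitochondrial shares lay between 11.2% and 11.7% in the 4 classes. Summed epithelial markers (EPCAM, CDH1 and 4 keratins) were at 5937 to 6737 CPM (UMIs scaled to the same total per class) in all 4 classes, and all 6 were detected. Summed markers of fibroblasts lay between 2.23 and 5.73 CPM, of endothelium between 0.857 and 1.95 CPM and of leukocytes between 0 and 0.477 CPM. Some of these markers were at 0 in both classes of a control: in the HA control 3 of 5 fibroblast, 1 of 5 endothelial and 2 of 5 leukocyte markers, and in the VPR control 2, 2 and 5 of 5. Doublets within a sample were not called. Of the replication-high cells, 7.93% and 7.86% were among the tenth of their sample with the most UMIs, against 6.51% and 7.70% of the replication-low cells.

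Each of the 6 score genes was higher in the high class, which the rule itself ensured. PCNA, the sliding clamp, was the most counted at 647 against 109 CPM in the HA control and 659 against 128 in the VPR control. MCM3, a helicase subunit, stood at 234 against 35.9 and 241 against 34.3 CPM, and MCM6, another subunit, at 120 against 13.8 and 117 against 14.4 CPM. On the log2 scale of CPM + 1 the gaps ran from 2.02 for MCM4 in the HA control to 3.03 for CDC6, the licensing factor, in the VPR control. Part of such a gap comes from choosing cells on the counts that are then compared. When cells were chosen on a random part of each cell's UMIs and compared on the remaining part, the 12 gaps lay between 1.26 and 2.18. MCM6 then stood 1.87 higher in the HA control (95% interval 1.64 to 2.11) and 1.89 higher in the VPR control (1.63 to 2.16). These 6 genes were left out of the CPM and of all counts of genes that follow.

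Across the other genes, many more stood clearly above than below in the replication-high cells, and the 2 controls gave nearly the same picture. A gene was counted when it differed by at least 1.5-fold the same way in both controls, among 5728 genes that averaged 20 CPM or more over the 4 classes. By this rule 176 genes were higher in the high class (3.07% of those tested) and 60 were lower (1.05%), while 0 differed by that much in opposite directions. Thinned to 5000 UMIs per cell before scoring, the controls gave 127 higher genes and 36 lower, of which 118 and 31 were among these. At 2-fold there were 76 higher genes (1.33%) and 16 lower (0.279%). Over all tested genes the median log2 ratio was -0.01 in each control. Because the cells were chosen on these same libraries, the ratios are descriptions and carry no test. Each control was 1 sample, so there is no replicate check within it, and the 95% intervals given for ratios cover counting error only.

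**Figure D1:**
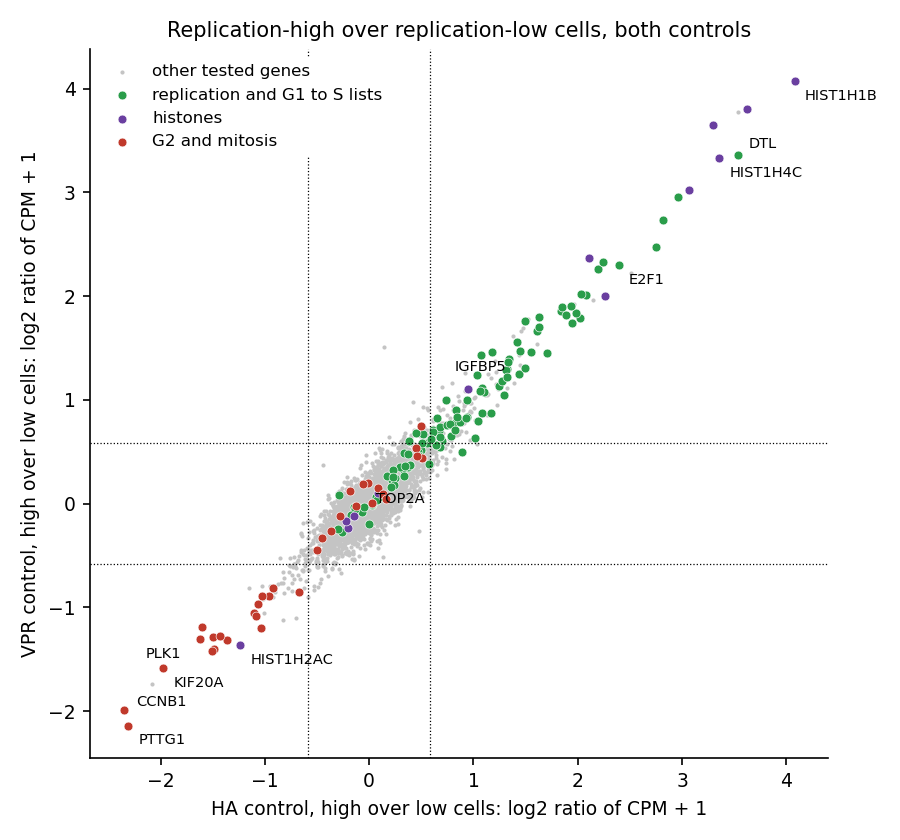
Log2 ratio of CPM + 1, replication-high over replication-low cells, for 5728 genes in the HA control (horizontal axis) and the VPR control (vertical axis), with dotted lines at 1.5-fold. Replication genes (green) and most histones (purple) lie toward the upper right, up to 4.08 for HIST1H1B, and genes of G2 and mitosis (red) range from PTTG1 and CCNB1 at the lower left to points near 0 such as TOP2A.

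The same cell rule was then applied to the 3 FOSL1 samples, which had no part in choosing the control cells, giving 2168 high and 2168 low cells. There 175 of the 176 genes were above 0 in each of the 3 samples and 139 were at least 1.5-fold higher in each, where 2.76% of tested genes were. Of the 60 lower genes 59 were below 0 in each and 32 at least 1.5-fold lower in each, where 0.611% of tested genes were 1.5-fold lower. The share of all tested genes above or below 0 in each of the 3 samples was not counted. The counts by sign alone thus say little. In edgeR's quasi-likelihood test of high against low sums, paired by sample and with Benjamini-Hochberg adjusted p under 0.05, 175 of the 176 genes rose and 59 of the 60 fell. That test called a large part of all 12916 genes it covered, 21.1% as risen and 18.2% as fallen, so the call alone says little about a gene and its size matters. Every count of list genes called by edgeR in the FOSL1 samples below is to be read beside these shares. DESeq2 called 1216 genes as risen and 976 as fallen in place of edgeR's 2730 and 2352. Risen by at least 1.5-fold were 6.30% of genes, and fallen by as much 2.63%. The high and low cells of a sample come from 1 culture and all samples from 1 pool, so these p-values do not cover repeats of the experiment. With 2 residual degrees of freedom, edgeR also shares its estimate of spread across genes. The p-values, and the SEs derived from its statistic, can thus be smaller than 3 samples alone would give. PTTG1, described below, had ratios of -1.65, -2.06 and -2.05 with HA FOSL1, gRNA2 and gRNA3, and an SE of 0.04. The score genes set the classes in these samples too, and genes that go with them through the cell cycle are not independent of them.

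Promoters were read for genes of both directions, because many of the higher genes belong to replication and many of the lower to mitosis, and both groups are classic cases of shared promoter elements. The sequences are from RefSeq (GRCh38.p14), 250 bases before to 50 after the first start listed, and 4796 of the 5728 tested genes had one. Searched on both strands were the E2F form TTTGGCG, its variants with TTTCCCG letters, with TTTCGCG letters and with TTTGCCG letters, which can overlap each other, the CHR element TTTGAA, known from late cell cycle genes, and the CCAAT box. An E2F form was found in 54 of 150 promoters of the higher genes (36%) and 3 of 50 of the lower genes (6%), against 14.7% of the tested genes and 8.69% of all 27305 promoters of the table. CHR letters were in 18 of 150 (12%) of the higher and 19 of 50 (38%) of the lower genes, against 9.82% of tested genes and 15.4% of all promoters. CCAAT was in 46% and 68%, against 38.5% and 35.7%. All 4 score genes with an entry (MCM3, MCM6, PCNA and CDC6) held an E2F form. These matches describe letters and show no binding.

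The 200 bases just before the start are shown for 3 score genes and for E2F1, all with E2F forms in capitals, to let the elements be compared. In MCM6 the same 12 letters stand at 2 places, each read as TTTGGCG on 1 strand and TTTCGCG on the other, beginning at -152 and -147 and again at -90 and -85 from the start. In E2F1 the 3 matches begin at -37, -32 and -20 and in PCNA the single one at -58. CDC6 has 1 in this stretch, at -28, and another that begins at base 8 after the start.
MCM6, chr2:135876444-135876643, minus strand: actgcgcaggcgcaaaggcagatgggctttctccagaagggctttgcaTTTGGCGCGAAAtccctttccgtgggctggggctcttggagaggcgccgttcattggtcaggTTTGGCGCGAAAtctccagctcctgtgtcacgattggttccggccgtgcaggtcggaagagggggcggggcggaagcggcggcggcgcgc
PCNA, chr20:5126623-5126822, minus strand: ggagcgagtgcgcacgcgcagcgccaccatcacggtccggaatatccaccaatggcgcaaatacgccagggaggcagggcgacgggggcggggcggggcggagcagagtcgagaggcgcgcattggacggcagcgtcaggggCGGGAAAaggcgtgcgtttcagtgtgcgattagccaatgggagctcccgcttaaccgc
CDC6, chr17:40287679-40287878, plus strand: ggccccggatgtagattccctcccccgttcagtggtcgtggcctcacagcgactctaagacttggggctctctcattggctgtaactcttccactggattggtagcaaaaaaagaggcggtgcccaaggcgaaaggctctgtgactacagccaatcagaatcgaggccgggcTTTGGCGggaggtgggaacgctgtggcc
E2F1, chr20:33686386-33686585, minus strand: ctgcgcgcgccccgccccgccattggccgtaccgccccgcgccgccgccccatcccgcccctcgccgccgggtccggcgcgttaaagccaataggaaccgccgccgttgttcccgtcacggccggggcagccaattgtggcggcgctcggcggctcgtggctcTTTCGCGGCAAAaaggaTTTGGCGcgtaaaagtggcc

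For 4 mitotic genes lower in the high class, picked because they hold CHR letters, the same stretch is shown with those letters in capitals. The leading lower genes PTTG1, CCNB1, KIF20A and NEK2 had 0 matches in the 300 bases read, and of the 16 genes lower by 2-fold 5 held one. In PLK1 and CCNB2 the match begins at -29, in CDC20 at -178 and -65, and in DLGAP5 at -138 and -109. DLGAP5 has another, not shown, that begins at base 4 after the start.
PLK1, chr16:23678689-23678888, plus strand: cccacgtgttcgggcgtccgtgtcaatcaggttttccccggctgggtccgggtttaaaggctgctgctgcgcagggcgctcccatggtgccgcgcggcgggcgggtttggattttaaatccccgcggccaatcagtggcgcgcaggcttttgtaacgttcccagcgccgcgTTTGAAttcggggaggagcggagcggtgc
CCNB2, chr15:59104946-59105145, plus strand: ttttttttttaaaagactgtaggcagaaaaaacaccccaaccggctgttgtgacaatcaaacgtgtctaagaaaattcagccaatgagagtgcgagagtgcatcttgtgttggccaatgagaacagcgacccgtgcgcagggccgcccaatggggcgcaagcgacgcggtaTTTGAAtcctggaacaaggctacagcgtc
CDC20, chr1:43358781-43358980, plus strand: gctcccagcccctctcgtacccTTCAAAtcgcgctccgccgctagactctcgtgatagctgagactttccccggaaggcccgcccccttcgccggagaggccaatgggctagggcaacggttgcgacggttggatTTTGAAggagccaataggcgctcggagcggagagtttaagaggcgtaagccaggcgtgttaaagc
DLGAP5, chr14:55191586-55191785, minus strand: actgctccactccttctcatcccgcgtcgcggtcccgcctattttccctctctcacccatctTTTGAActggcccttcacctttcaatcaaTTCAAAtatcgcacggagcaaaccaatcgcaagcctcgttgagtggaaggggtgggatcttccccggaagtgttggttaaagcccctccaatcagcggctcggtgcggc

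The linker histone genes HIST1H1B and HIST1H1D stood farthest above, and other histone genes were close behind among FAM111B and DTL, described later. HIST1H1B, which encodes linker histone H1.5 (chromosome 6, 27866792 to 27867588), was at 97.8 CPM in high and 4.85 in low cells of the HA control, and at 95.7 and 4.76 CPM in the VPR control. That is a log2 ratio of 4.08 (3.76 to 4.40) and 4.07 (3.71 to 4.43). HIST1H1D was higher by 3.62 and 3.81 and HIST1H1A by 3.29 and 3.65 in the HA and VPR controls. HIST1H4C, a core histone H4 gene (chromosome 6, 26103933 to 26104337), was by far the most abundant of them. It stood at 3061 against 298 CPM in the HA control and 3080.2 against 305 CPM in the VPR control, ratios of 3.36 (3.31 to 3.40) and 3.33 (3.28 to 3.39). With cells thinned to 5000 UMIs before scoring, the mean ratio of the 2 controls was 2.94 in place of 4.07 for HIST1H1B and 2.50 in place of 3.34 for HIST1H4C. HIST2H2AC, an H2A gene, was higher by 3.07 and 3.02. Of 15 listed histone genes 13 reached 20 CPM, and 8 were higher and 1 lower in both controls, with medians of 2.10 and 1.997 against -0.01 over all tested genes.

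The exception was HIST1H2AC, another H2A gene, at 20.1 CPM in high and 48.6 in low cells of the HA control and 21.2 against 56.1 CPM in the VPR control. Its ratios were -1.23 (-1.43 to -1.04) and -1.37 (-1.58 to -1.15), and HIST1H2BD, below 20 CPM, was lower as well at -0.71 and -0.67. The replacement histones H2AFZ, H3F3A and H3F3B, which are made outside S phase too, lay between -0.23 and 0.10. In the FOSL1 samples edgeR called 10 of 15 histone genes risen and 5 fallen. HIST1H4C rose by 3.56 on the log2 scale (SE 0.04, edgeR adjusted p = 2.716e-35) and HIST1H2AC fell by 1.26 (SE 0.05, edgeR adjusted p = 1.214e-18), each in 3 of 3 samples. Most histone RNAs of S phase lack a poly(A) tail, and the kit captures poly(A) RNA, so these levels are those of the captured part.

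Licensing and helicase genes were almost uniformly higher. Of 24 listed, 14 reached 20 CPM, and 11 were higher and 0 lower in both controls, with medians of 1.31 and 1.17. MCM10, which helps to start the helicase, stood at 49.6 against 5.49 CPM in the HA control and 51.3 against 5.78 in the VPR control, ratios of 2.96 and 2.95. CDC45, part of the active helicase, was higher by 2.24 (1.99 to 2.49) and 2.33 (2.04 to 2.62), and CDT1, the loading factor, by 2.19 and 2.27. GMNN encodes geminin, which blocks CDT1, and it was higher too, by 1.32 and 1.30. MCM7, a helicase subunit outside the score, was at 159 against 64.2 and 141 against 67.6 CPM, ratios of 1.30 and 1.05. MCM2 was under 20 CPM on average but pointed the same way, by 1.97 and 1.60. In the FOSL1 samples 21 of the 24 rose by edgeR's test.

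At the replication fork 15 of 19 tested genes were higher and 0 lower, with medians of 1.17 and 0.99. CLSPN, the checkpoint mediator claspin that travels with the fork, led this group at 246 against 34.0 CPM in the HA control and 268 against 39.4 in the VPR control, ratios of 2.82 (2.68 to 2.96) and 2.74 (2.59 to 2.89). FEN1, the flap nuclease, was higher by 1.99 and 1.83 and LIG1, the ligase of lagging-strand fragments, stood at 62.9 against 21.6 and 62.1 against 24.5 CPM. PCLAF, a PCNA-binding protein, was higher by 0.92 and 0.82. The smallest difference among those given here was that of RPA1, a subunit of the single-strand binding protein, at 0.33 and 0.26. All 29 listed fork genes rose in the FOSL1 samples by edgeR's test.

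Other transcripts of the G1 to S passage gave 12 higher and 0 lower among 14 tested, with medians of 1.17 and 1.11. DTL, which directs CDT1 and other PCNA-bound proteins to destruction, was at 53.9 against 3.74 CPM in the HA control and 55.2 against 4.46 in the VPR control. Its ratios, 3.54 (3.19 to 3.89) and 3.36 (2.99 to 3.75), were the largest of any listed gene outside the histones. FBXO5, an inhibitor of the anaphase-promoting complex, was higher by 2.75 and 2.47, and UNG, the uracil glycosylase, by 1.71 and 1.45. SLBP, which binds the stem-loop of histone RNA, was higher by 1.07 and 1.08. All 16 listed genes rose in the FOSL1 samples by edgeR's test. FAM111B, a protease-like gene outside every list, belongs with the farthest genes at 245 against 20.2 and 262 against 18.2 CPM, ratios of 3.53 and 3.77.

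Regulators of the passage were uneven. Of 24 listed, only 10 reached 20 CPM, and 3 were higher and 0 lower, with medians of 0.36 and 0.35. E2F1 (chromosome 20, 33675477 to 33686385), an activator of the E2F family, was at 65.2 against 11.6 CPM in the HA control and 69.1 against 13.3 in the VPR control, ratios of 2.39 (2.15 to 2.63) and 2.30 (2.04 to 2.56). CCNE1 and CCNE2, the cyclins E, lay close to 30 CPM in high cells and under 10 in low cells. Their ratios were 1.87 and 1.62 for CCNE1 and 2.31 and 1.96 for CCNE2. E2F8, a repressor of the family, was also under 20 CPM on average and differed by 1.88 and 2.63. The D cyclins differed from each other, with CCND1 (cyclin D1) at -0.18 and -0.11 and CCND3 (cyclin D3) at 32.3 against 18.9 CPM in the HA control and 34.6 against 16.8 in the VPR control, ratios of 0.74 (0.52 to 0.96) and 1.00 (0.75 to 1.25). Their kinase partners CDK6 and CDK4 were at -0.15 and -0.03 and at 0.64 and 0.57. The inhibitors CDKN1A and CDKN1B had intervals that included 0 in both controls. In the FOSL1 samples 14 of 23 fitted regulators rose and 2 fell by edgeR's test, beside 21.1% risen and 18.2% fallen over all genes. CCND3 rose by 0.76 (SE 0.07, adjusted p = 1.517e-10) and CCND1 fell by 0.25 (SE 0.03, adjusted p = 7.904e-09).

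Nucleotide supply differed less than the machinery that uses it, with 5 of 15 tested genes higher, 0 lower and medians of 0.35 and 0.36. RRM2, the regulated subunit of ribonucleotide reductase, was at 184 against 44.5 CPM in the HA control and 206 against 59.0 in the VPR control, ratios of 2.02 (1.89 to 2.15) and 1.79 (1.66 to 1.92). Its partner RRM1 differed by 0.89 and 0.50. TYMS, thymidylate synthase and the target of 5-FU, was at 389 against 258 and 394 against 255 CPM, ratios of 0.59 and 0.62. TK1, the salvage kinase, was at 0.35 and 0.36. Of 18 listed genes 13 rose and 2 fell in the FOSL1 samples by edgeR's test, beside 21.1% and 18.2% of all genes.

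Repair and chromatin genes went along with replication. Among checkpoint and repair genes 9 of 12 tested were higher and 0 lower (medians 1.08 and 1.14), with BRCA1 at 1.88 and 1.81, CHEK1, the kinase activated by stalled forks, at 1.03 and 1.24, and the mismatch repair gene MSH6 at 1.10 and 1.07. EXO1, a repair nuclease under 20 CPM on average, was at 29.6 against 2.39 CPM in the HA control and 28.4 against 2.33 in the VPR control, ratios of 3.18 and 3.15. In chromatin assembly 6 of 14 were higher and 0 lower (medians 0.59 and 0.57). CHAF1A, the large subunit of the CAF-1 histone chaperone, was at 1.94 and 1.90, HELLS at 1.84 and 1.86 and DNMT1, the maintenance DNA methyltransferase, at 0.84 in both. Cohesin genes split, with 3 of 10 higher: ESCO2, the S phase acetyltransferase of cohesin, was at 2.08 and 2.01 and CDCA5 (sororin) at 1.49 and 1.76, against a list median of 0.46 and 0.43. By edgeR's test in the FOSL1 samples 21 of 22 checkpoint and repair genes, 13 of 16 chromatin assembly genes and 6 of 11 cohesin genes rose, and 1 chromatin assembly gene fell. Over all genes 21.1% rose and 18.2% fell.

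**Figure D2:**
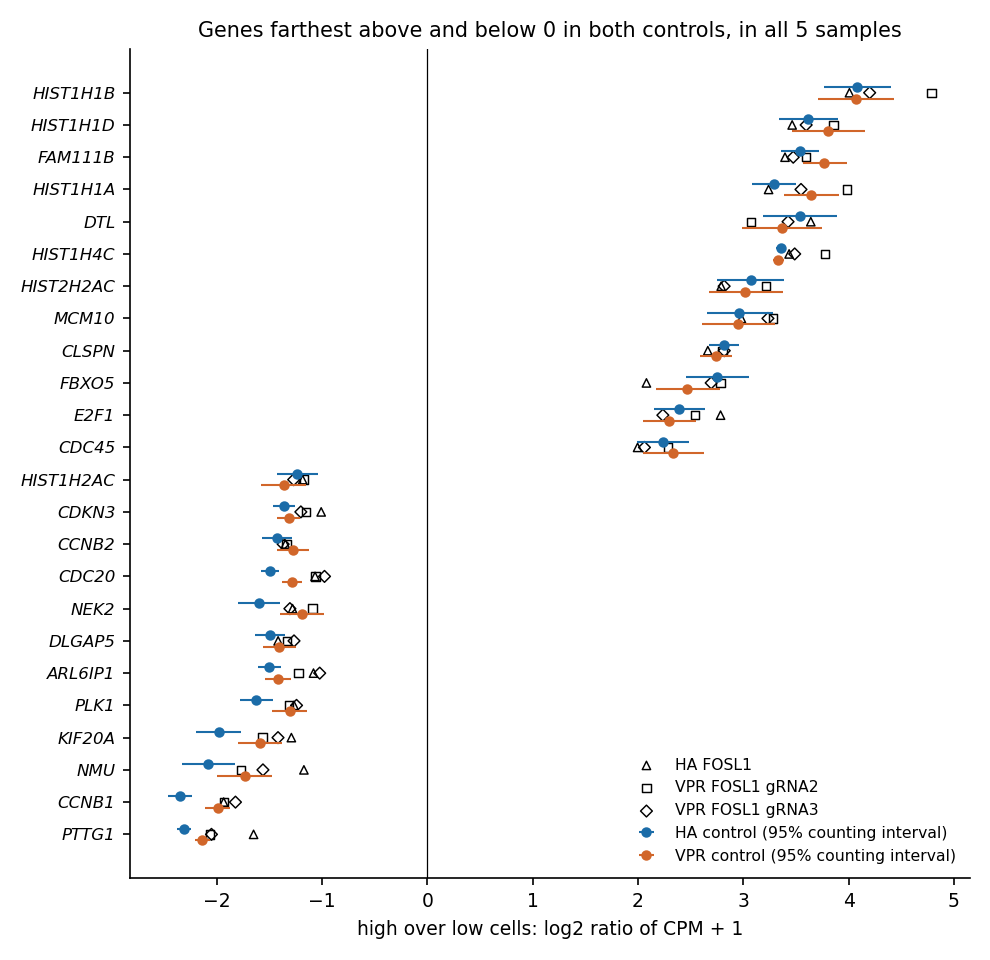
Log2 ratio of CPM + 1, high over low cells, for the 12 leading higher and the 12 leading lower genes of both controls (filled points with 95% counting intervals), with the 3 FOSL1 samples as open symbols. The 5 samples lie on the same side of 0 for each gene, from HIST1H1B above 4 to PTTG1 and CCNB1 near or under -2 in the controls.

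The genes farthest below 0 in the replication-high cells were mostly genes of late G2 and mitosis. Of all 60 lower genes, 18 were on the list of such genes and 41 on no list. Of 36 listed, 34 reached 20 CPM, and 18 were lower and 0 higher in both controls, with medians of -0.80 and -0.83. PTTG1, which encodes securin, the guard of sister chromatids, was at 149 against 746 CPM in the HA control and 168 against 744 in the VPR control. Its ratios were -2.31 (-2.38 to -2.25) and -2.14 (-2.21 to -2.07). CCNB1, cyclin B1 of the mitotic kinase, was at 52.7 against 273 and 64.4 against 259 CPM, ratios of -2.35 (-2.46 to -2.24) and -1.99 (-2.11 to -1.88). KIF20A, a kinesin of cell division, was lower by 1.98 and 1.59 on this scale. The mitotic kinase gene PLK1 had ratios of -1.62 and -1.31, the anaphase activator CDC20 of -1.499 and -1.28 and CCNB2 of -1.43 and -1.27. With PCNA and CDC6 alone as the score, the mean ratio of the 2 controls was -0.70 in place of -1.47 for PLK1 and -0.72 in place of -1.45 for DLGAP5, a spindle protein gene.

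The list was not uniform, since 4 of its genes had intervals above 0 in both controls. CDK1, the kinase that cyclin B activates, was at 150 against 106 CPM in the HA control and 171 against 101 in the VPR control, ratios of 0.50 (0.40 to 0.59) and 0.75 (0.64 to 0.86). AURKB, the chromosomal passenger kinase, was at 0.45 and 0.54, and MYBL2 at 0.46 in both. TOP2A and MKI67, common proliferation markers, were level, at -0.06 and 0.19 for TOP2A and 0.03 and 0.00 for MKI67. By edgeR's test in the FOSL1 samples 21 of the 36 fell and 12 rose, beside 18.2% fallen and 21.1% risen over all genes. PTTG1 fell by 1.94 (SE 0.04, adjusted p = 4.678e-26) and CDK1 rose by 1.04 (SE 0.05, adjusted p = 1.579e-17), each in 3 of 3 samples.

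Genes in none of the lists made up 103 of the 176 higher and 41 of the 60 lower genes, and those named here were picked after their values were seen. Among the higher were the cell cycle kinase genes MASTL (2.15 and 1.96 in the HA and VPR controls) and PKMYT1 (1.45 and 1.33), the latter an inhibitor of CDK1. NPAT, the activator of histone gene transcription, was at 0.90 in both. IGFBP5, a secreted binding protein of insulin-like growth factors and part of the secreted list, was the exception of that list, at 1800.3 against 1107 CPM in the HA control and 1025 against 471 in the VPR control, ratios of 0.70 and 1.12. Its level differed between the controls by more than between the classes of the HA control. Among the lower genes NMU, the neuropeptide neuromedin U, was the farthest outside the lists, at 9.54 against 43.6 CPM in the HA control and 12.3 against 43.2 in the VPR control, ratios of -2.08 and -1.74. KDM5B, a histone H3 demethylase, was at -1.01 and -1.05.

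In lists of growth and stress programmes the median difference between the classes was small. None of the tested genes of the nucleolus and MYC list (15), growth arrest (6), immediate early genes (9), keratins (12), hypoxia and glycolysis (9), unfolded protein and stress (10), sterol synthesis (12), ribosomal proteins (79) or mitochondrial transcripts (13) differed by 1.5-fold in both controls, and their medians lay between -0.13 and 0.20. Over all tested genes 3.07% were higher and 1.05% lower by that rule, so 0 calls in the shorter lists say little. Some genes came near the bound or passed it in 1 control. DUSP1 was at 0.56 and 0.91, PFKP at 0.58 and 0.54 and TOB1 at -0.65 and -0.46 in the HA and VPR controls. Some of the lists held small differences. The 79 ribosomal protein genes had medians of -0.03 and -0.04, and 37 had intervals below 0 in both controls and 9 above. Those intervals cover counting error only and are narrow for such abundant genes, and the share of all tested genes with like intervals was not counted. By edgeR's test in the FOSL1 samples 46 ribosomal protein genes fell and 4 rose, with a median of -0.06. Of 16 nucleolus and MYC genes 8 fell and 2 rose there, with a median of -0.12, beside 18.2% fallen and 21.1% risen over all genes. MYC was at 89.7 against 90.0 CPM in the HA control and 76.5 against 86.6 in the VPR control, ratios of 0.00 and -0.18. FOSL1 RNA was low in the controls and not set apart by the score. It was at 7.19 against 9.07 CPM in the HA control, a ratio of -0.30 (-0.65 to 0.05), and at 9.43 against 7.80 in the VPR control, a ratio of 0.24 (-0.14 to 0.64). It stood at 61.3 against 56.9 CPM with HA FOSL1, 92.6 against 98.8 with gRNA2 and 96.8 against 83.2 with gRNA3, all above both controls. Between the classes of these 3 samples its edgeR log2 difference was 0.08 (SE 0.05, adjusted p = 0.2009), with 2 of 3 samples above 0.

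Over all 4 quartiles of the score the summed level of each of the 9 replication lists was higher at every step in both controls, whereas the mitotic list did not mirror them. Licensing genes summed to 607, 739, 1014 and 1497 CPM from the lowest to the highest quartile of the HA control and to 629, 746, 1079 and 1486 in the VPR control. Single genes followed less uniformly. Of all 5728 tested genes 25.3% had their highest level in the top quartile of both controls. In the fork (19), other G1 to S (14) and checkpoint and repair (12) lists all tested genes did, as did 12 of 14 licensing, 12 of 14 chromatin assembly, 9 of 13 histone, 11 of 15 nucleotide supply, 7 of 10 cohesin and 6 of 10 regulator genes. These counts describe genes of the cells that were ranked, so nothing is read from them. HIST1H4C stood at 298, 638, 1661 and 3061 CPM in HA control cells and at 305, 467, 1703 and 3080.2 CPM in the VPR control. Mitotic genes summed to 5175, 5329, 3986 and 2822 CPM in the HA control and to 5152, 5196, 4335 and 3072 CPM in the VPR control, so that quartile 2 was highest in both. PTTG1 was lower at every step, at 746, 627, 360 and 149 CPM in the HA control and at 744, 646, 383 and 168 CPM in the VPR control. PLK1 and CCNA2 were highest in quartile 2 of both controls, and TOP2A, UBE2C and MKI67 in quartile 2 of the HA control and quartile 3 of the VPR control. A comparison of the top and bottom quartiles alone therefore misses the middle peak of these genes. CCND1 was also highest in the middle, at 469 and 508 CPM in quartile 3 against 373 and 443 in the top quartile.

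**Figure D3:**
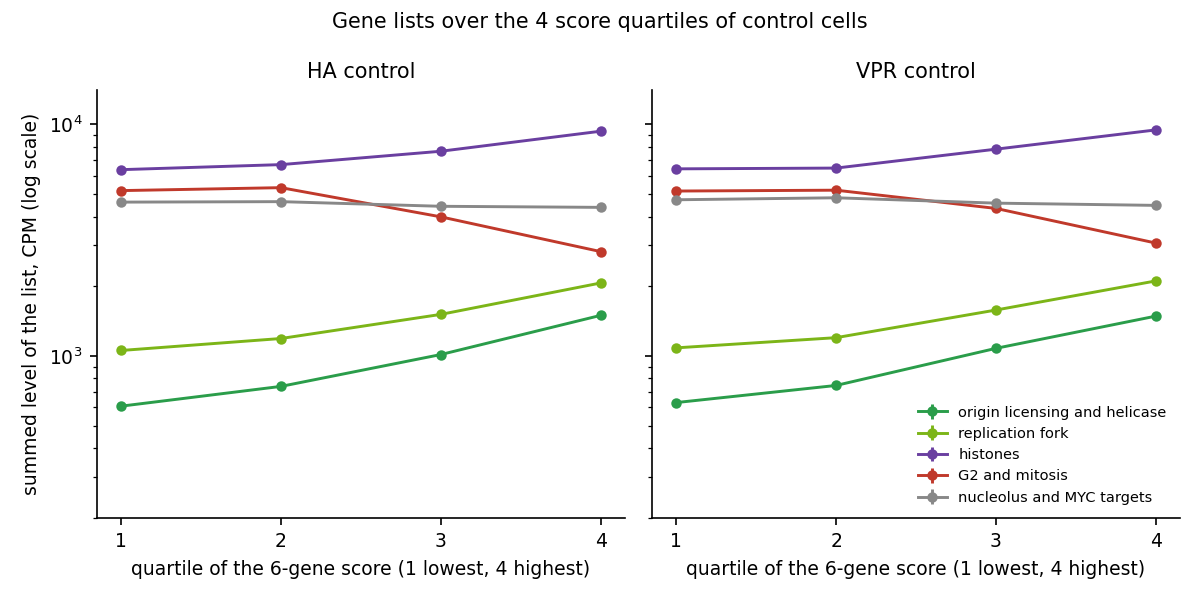
Summed level of 5 gene lists in CPM (vertical axis, log scale) over the 4 quartiles of the score (horizontal axis) in each control, with exact 95% Poisson intervals smaller than the points. Licensing, fork and histone lists are highest in quartile 4, the mitotic list is at 5329 CPM in quartile 2 and 2822 CPM in quartile 4 of the HA control, and the nucleolus list stays nearly flat.

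In single cells the shares rich in mitotic RNA and the median cell were ordered differently. When each control's cells were ranked by the summed mitotic list per 10000 UMIs, the top quartile by that measure held 32.8%, 36.2%, 25.0% and 6.04% of the cells of score quartiles 1 to 4 in the HA control. For the VPR control the shares were 32.4%, 32.7%, 27.0% and 8.01%. The exact binomial 95% interval was 4.53% to 7.86% in quartile 4 of the HA control and 29.6% to 36.1% in quartile 1, which covers counting error only, since the cells come from 1 sample. Mitosis-rich cells were fewest in the replication-high quartile of each control. At 5000 UMIs per cell the shares in quartile 4 were 7.47% and 9.12%, and those in quartile 1 were 33.5% and 31.8%. The median cell held 35.1, 32.4, 17.2 and 21.0 mitotic UMIs per 10000 in score quartiles 1 to 4 of the HA control, and 32.4, 30.2, 22.2 and 22.5 in those of the VPR control. By the median, then, quartile 3 and not the replication-high class was lowest. In the HA control the spread from lower to upper quartile was 14.1 to 74.1 in replication-low cells, 7.53 to 61.2 in score quartile 3 and 13.2 to 36.1 in replication-high cells, the narrowest of the 3.

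The replication-high class was itself divided by histone RNA. HIST1H4C per 10000 UMIs had a median of 30.2 in high cells of the HA control, with a lower quartile of 6.83 and an upper of 45.5. VPR control cells had values of 31.7, 6.17 and 46.8. Low cells had medians of 1.97 and 2.01. A level of at least 10 was reached by 68.8% and 66.7% of high cells, 21.7% and 20.6% of middle cells and 2.13% and 2.31% of low cells in the HA and VPR controls. In the 3 FOSL1 samples the share among high cells was 64.8% with HA FOSL1, 70.1% with gRNA2 and 67.5% with gRNA3. About 1 replication-high cell in 3 thus had little HIST1H4C, although the score genes were high in it.

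**Figure D4:**
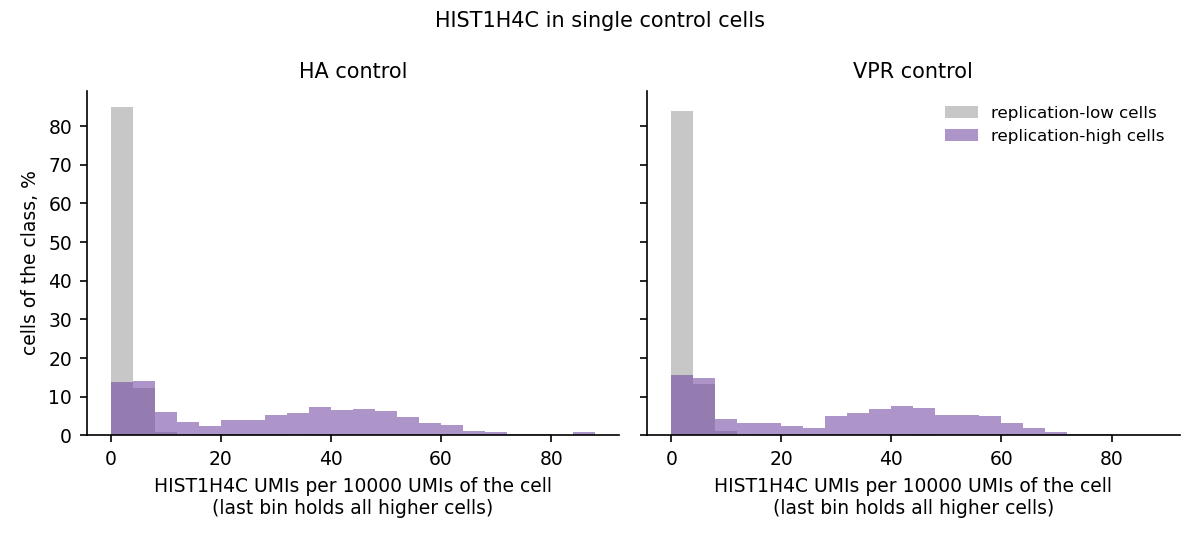
Share of cells (vertical axis, %) by HIST1H4C UMIs per 10000 UMIs of the cell (horizontal axis) in replication-low (grey) and replication-high (purple) cells of each control. Low cells pile up in the first bin, while high cells form a peak there and a broad second one around the class medians of 30.2 and 31.7 or somewhat above.

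To describe this division, the high cells of each control were ordered by HIST1H4C, and the richest quartile was compared with the poorest (212 against 212 cells in the HA control and 163 against 163 in the VPR control). This split was chosen after the values were seen, and it is a description with no test. The HIST1H4C-rich cells had a median of 17510 against 15126 UMIs in the HA control and 18231 against 14582 in the VPR control, and their median scores were 12.4 against 11.1 and 12.8 against 11.3. Of 5735 genes 181 were at least 1.5-fold higher in the rich cells of both controls (3.16%) and 39 lower (0.680%). Of the 181, all were above 0 in each of the 3 FOSL1 samples and 133 reached 1.5-fold in each, where 2.42% of tested genes did. Of the 39, 34 were below 0 in each of the 3 and 13 reached 1.5-fold in each, where 0.331% did. Here too the share of all tested genes above or below 0 in each was not counted.

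Mitotic genes, which set the high class below the low class, were higher in its histone-rich cells. Of 31 tested 28 were higher and 0 lower, with medians of 2.07 and 1.71 against 0.01 over all tested genes. TOP2A, the topoisomerase that untangles sister DNA, was at 386 against 50.1 CPM in the HA control and 380 against 55.5 in the VPR control, ratios of 2.92 (2.69 to 3.15) and 2.75 (2.50 to 3.02). CDK1 was at 224 against 47.4 and 252 against 67.5 CPM, and CCNA2, cyclin A2, at 84.2 against 14.4 and 91.4 against 13.2 CPM. RRM2 was higher by 2.28 and 2.66, PCLAF by 1.09 and 1.24, CDC45 by 1.54 and 1.47 and the repressor E2F8 by 1.31 and 1.90. PTTG1 showed a smaller gap of 1.05 and 0.45.

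Among the genes higher in the HIST1H4C-poor cells were DTL and the cyclins E, although their lists as a whole were not. Of 14 tested other G1 to S transcripts 5 were higher in the rich cells and 2 lower, of 15 regulators 2 and 2, and of 17 licensing genes 3 and 0. The genes given next were picked after their values were seen. DTL was at 76.8 CPM in poor against 32.3 in rich cells of the HA control, and at 62.9 against 34.9 in the VPR control (rich over poor ratios of -1.22 and -0.83). CCNE1, again with poor cells first, was at 45.0 against 22.3 and 42.4 against 22.2 CPM, ratios of -0.98 and -0.90, and CCNE2 had ratios of -0.77 and -0.82. MSH6 was at -0.84 and -0.75 and CDCA7 at -0.59 and -0.70. MSH6 went against its checkpoint and repair list, where 7 of 16 tested genes were higher in the rich cells and 1 lower. The medians of that list were 0.57 and 0.45 in the HA and VPR controls. The keratin gene KRT16 was at -1.37 and -1.13, INHBA, the inhibin beta A chain, at -1.26 and -2.42 and TAGLN, transgelin, at -1.18 and -1.57. In the 3 FOSL1 samples the CCNE2 gap was smaller, at -0.04, -0.33 and -0.28, whereas that of DTL was -1.07, -0.92 and -0.90 with HA FOSL1, gRNA2 and gRNA3. Every cell compared here was chosen for a high sum of the 6 score genes, which limits in advance how far those could differ. FOSL1, at only 2.57 to 11.5 CPM, was at -1.40 (-2.24 to -0.53) and -0.83 (-1.64 to -0.02) in the controls, and at -0.52, 0.46 and 0.65 in the FOSL1 samples.

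**Figure D5:**
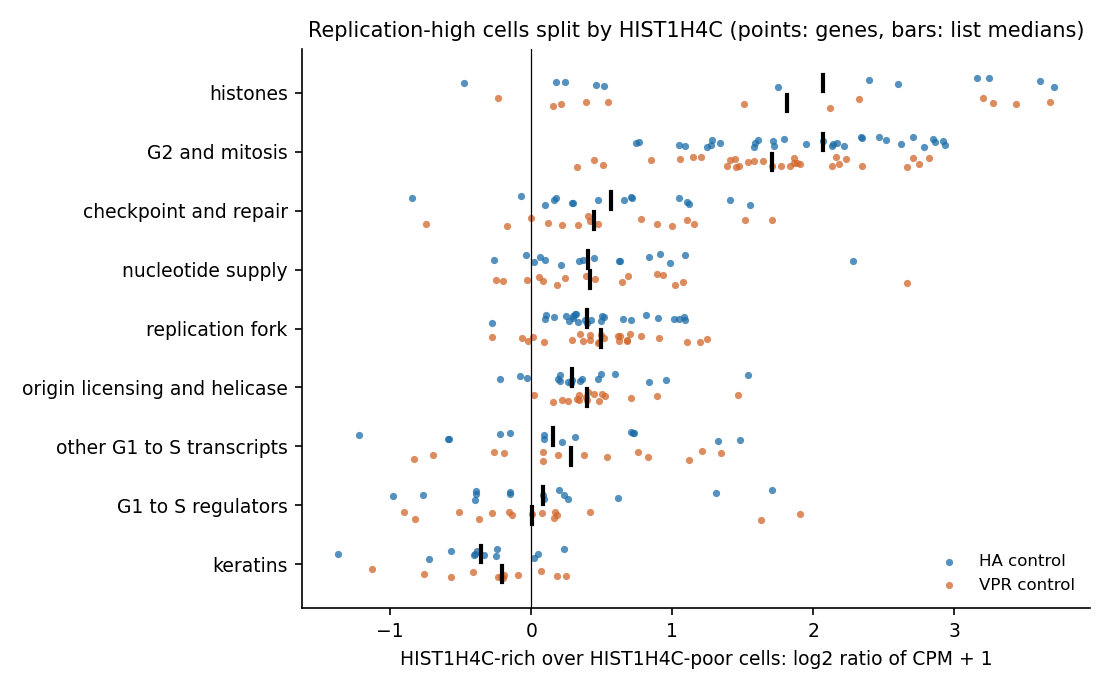
Log2 ratio of CPM + 1 of HIST1H4C-rich over HIST1H4C-poor replication-high cells (horizontal axis), each point a gene of the list named at the left in 1 control, black bars the list medians. Mitotic genes have medians of 2.07 and 1.71, and licensing genes of 0.29 and 0.40.

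Whether the high-low difference depends on FOSL1 state was tested with edgeR as an interaction over all 5 samples. The control side of this test is made of the cells that the rule chose, so its calls are not independent of that choice. Of 12911 genes 69 passed (0.534%), 40 with a more positive difference in the FOSL1 samples (0.310%) and 29 with a more negative one (0.225%). Of the 36 mitotic genes 13 passed, each more positive, with a median of 0.23 over the 36. The classes were cut within each sample and not at 1 common score. The upper bound was 8.63 with HA FOSL1, 9.88 with gRNA2 and 9.42 with gRNA3, against 9.41 and 9.54 in the HA and VPR controls. What part this has in the differences was not tested. TOP2A was level in the controls and rose in the FOSL1 samples, by 0.51, 0.48 and 0.69 with HA FOSL1, gRNA2 and gRNA3 (interaction 0.51, edgeR adjusted p = 7.603e-07). CDC20 had ratios of -1.499 and -1.28 in the controls and of -1.07, -1.06 and -0.98 in the FOSL1 samples (interaction 0.36, edgeR adjusted p = 0.0001688). CTGF, a secreted matrix protein named after its values were seen, was higher in the high class of the controls by 0.81 and 0.73 and near 0 in the FOSL1 samples at 0.05, 0.19 and 0.03 (interaction -0.70, edgeR adjusted p = 1.395e-09). NETO2, named likewise, stood at 0.80 and 1.16 in the controls and at -0.02, 0.21 and 0.18 in the FOSL1 samples (interaction -0.88, edgeR adjusted p = 1.351e-08). In place of 69, the number of genes was 9 with DESeq2, 21 after thinning, 23 without the HA control, 26 without the VPR control and 34 without gRNA3. Cells of the FOSL1 samples were deeper, with medians of 17414 to 20768 UMIs against 15402 and 15810 in the controls. Alternatives that bear on depth were the thinning, quartiles cut among cells of like UMIs, and leaving out the tenth of cells with the most UMIs. Thinned sums also hold fewer UMIs, so the smaller number of calls there cannot separate depth from lost counts.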

How the data were processed

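RNA of 5 hashed MDA-MB-468 samples was counted from 1 pooled 10x 3' v3 library. The authors deposited raw UMI counts per gene and barcode made with Cell Ranger (version 4 per the file headers), on build hg38 per the submitters' processing notes. The sources used here do not name the annotation release. A deposited table assigns 21228 called cells to a hashtag with an assignment probability, a fraction of at least 0.90 for each assigned cell. Multiplets (5181 cells) and 676 other cells were left out, and 15371 cells (72.4%) were assigned. The labels speak of 6 stained samples in the pool, and the 5 named in the series design were analysed here. Barcodes repeated in the assignment table numbered 0.

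UMIs were summed over the cells of each class and scaled to CPM without the 6 score genes. Ratios are log2 of CPM + 1 with exact conditional binomial intervals, and genes were counted at 1.5-fold in both controls and a mean of at least 20 CPM. A pseudocount of 1 understates ratios of low genes. Classes held 9872330 to 14906066 UMIs in the controls. Counts of the 3 FOSL1 samples were fitted with edgeR 4.0.16 (glmQLFit, glmQLFTest, TMM, filterByExpr, sample as block, 2 residual degrees of freedom), because high and low cells of a sample share a culture, and the interaction over 5 samples with 3. Adjusted p-values are Benjamini-Hochberg over all genes, with 0.05 as threshold. Both fits were also run on simulated sums, drawn for each gene apart at the fitted common dispersion. No cells were chosen by a score in that simulation, so it cannot speak to the effect of that choice. DESeq2 1.42.0 served as an alternative, beside others on thinning, score, filters and scaling. Named are the 6 score genes, FOSL1, the 12 leading higher and 12 leading lower genes by the smaller ratio of the 2 controls, and members of 20 gene lists. The members, lists and rules were chosen with earlier results of these data known. Gene symbols are those of the deposited table, and 48 genes share one with another entry. Gene positions are those of RefSeq on GRCh38.p14.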

Additional observations from a re-analysis of the deposited data

Results flagged for a closer look

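In 20 named or listed genes the high-low difference of the 2 controls differed from that of the 3 FOSL1 samples by edgeR's interaction test (adjusted p under 0.05, 0.534% of all genes tested). Values are log2, positive where the FOSL1 samples had the more positive difference. Of the 20, 13 are mitotic genes and all 13 were positive: TOP2A (0.51), BUB1 (0.50), UBE2C (0.49), CDK1 (0.42), CDC25B (0.40), CDC20 (0.36), ARL6IP1 (0.36), NUSAP1 (0.34), CENPF (0.34), PTTG1 (0.29), CCNB1 (0.29), MKI67 (0.27) and CKS2 (0.24). BUB1, for example, was 1.03 and 1.20 lower in the HA and VPR controls and 0.73, 0.63 and 0.53 lower in HA FOSL1, gRNA2 and gRNA3. HMGB2, a chromatin protein, had 0.44 and HIST1H4C 0.21. The sterol synthesis genes HMGCS1 and IDI1 had 0.34 and 0.28, and the immediate early gene FOS 0.35. Negative were S100A8, a secreted calcium-binding protein, at -0.33 and NCL, nucleolin, at -0.17. In the mitotic genes the difference was nearer to 0 or more positive in the FOSL1 samples. Those samples also held more UMIs per cell and had other score bounds, and the cause of the difference was not tested.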

How the results depend on the processing

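Limits of depth, method and sample number are given here by setting. The 176 higher and 60 lower genes of the controls became 393 and 121 at a mean of at least 5 CPM, and 71 and 30 at 50 CPM. The lower genes numbered 36 when cells were thinned to 5000 UMIs and 34 with PCNA and CDC6 alone as score. With 1 control alone the higher genes numbered 213 to 216 and the lower 77 to 83. Within replication-high cells the counts by HIST1H4C (181 and 39) were 255 to 277 and 103 to 112 with 1 control alone, and these alternatives were chosen after seeing the data. In the FOSL1 samples, where 2730 genes rose and 2352 fell, DESeq2 called 1216 and 976, thinned cells 1080 and 895, and a fit with no replicate block for the pairing of high and low sums 967 and 571. Leaving out 1 sample gave 1932 to 2714 risen and 1569 to 2548 fallen. Interaction calls, 69 in all, were 9 with DESeq2, 111 without a filter on low counts, 21 with thinned cells and 23 to 94 with 1 sample left out. They were 23 without the HA control, 26 without the VPR control, 34 without gRNA3, 60 without gRNA2 and 94 without HA FOSL1. The cause was not tested. For the 24 genes farthest from 0, 0 of 264 alternative values in the controls and 0 of 240 in the FOSL1 samples changed direction, and the latter all passed edgeR's or DESeq2's threshold. Of the 264, 157 moved by more than 1 SD of the 2 controls, and 26 moved by over 1.5-fold, 9 of them after thinning, 8 with PCNA and CDC6 alone as score and 5 without PCNA in the score. Levels under 20 CPM limit the precision of low genes such as EXO1 and FOSL1.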
